A study of Mus musculus with 8 samples.

Results

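The 5660 regions described here are distal candidate enhancers of mouse embryonic stem cells at which the enhancer mark H3K4me1 was lower without MLL3 and MLL4 in both the formative and the naive state. They were picked from 112137 regions by position and by H3K4me1. A region was eligible if it was annotated as intron or intergenic, lay over 5000 and at most 100000 bases from the nearest transcription start site (TSS), and had H3K4me1 above 0 in all 4 groups. Of 71118 eligible regions, the members are the 7.96% whose H3K4me1 was lower by at least 1 log2 unit in DKO than in WT cells, in formative and in naive cells alike. The H3K4me1 values are the authors' pooled levels from libraries outside this series, so that loss is how the members were picked and not a result. The readout is acetylation of histone H3 at lysine 27 (H3K27ac), which the choice did not use.

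H3K27ac was profiled by CUT&Tag, in which an antibody on chromatin recruits a transposase that tags the DNA beside it for sequencing. The 8 libraries form 4 groups of 2: formative DKO, formative WT, naive DKO and naive WT. The DKO cells lack both MLL3 and MLL4 (MLL3KO_MLL4KO). Formative cells were collected 63 hours after LIF2i was withdrawn from naive cultures. The WT cells are the R1 line, while the sources used here give no line, clone number or deleted part for the DKO cells. The replicates were grown, harvested and prepared separately, per the series' design text. The table gives 1 pooled H3K27ac value per group, log2(value + 1), so no difference that involves DKO cells has an SD, an n or a test here, and the depth is unknown. A region was counted as lower or higher in DKO when the pooled values differed by at least 1 log2 unit, which is 2-fold. Coordinates are mm10.

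MLL3 (gene Kmt2c) and MLL4 (gene Kmt2d) are the main methyltransferases that place a single methyl group on lysine 4 of histone H3 at enhancers. The same complexes are known to help recruit p300, the enzyme that acetylates lysine 27, and H3K27ac marks enhancers that are active. In naive embryonic stem cells such enhancers hold up the network of Klf, Esrrb and Nanog factors, and during the passage to the formative state enhancers bound by Otx2 and Pou3f1 take over.

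The central 300 bases of 6 members are printed to show what the extremes and a known signalling locus look like. The first 3 lie near Zfp93, 2410141K09Rik and Crocc2 and had the lowest H3K27ac in DKO relative to WT in both states among members above the members' median H3K27ac abundance. Those near Slc16a1 and Lmo7 had the highest. The last lies near Lefty1, which encodes an inhibitor of Nodal signalling. Capitals mark matches, on either strand, to 9 short motifs named further on. Sequences are the plus strand of GRCm38, the same build as mm10, from RefSeq's genome.
Zfp93 member, chr7:24279145-24279444: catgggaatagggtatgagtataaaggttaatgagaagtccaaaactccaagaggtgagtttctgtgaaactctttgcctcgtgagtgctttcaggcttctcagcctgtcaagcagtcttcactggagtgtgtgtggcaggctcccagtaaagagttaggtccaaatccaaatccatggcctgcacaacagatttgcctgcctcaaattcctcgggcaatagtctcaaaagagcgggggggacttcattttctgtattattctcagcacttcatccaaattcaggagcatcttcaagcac
2410141K09Rik member, chr13:66457408-66457707: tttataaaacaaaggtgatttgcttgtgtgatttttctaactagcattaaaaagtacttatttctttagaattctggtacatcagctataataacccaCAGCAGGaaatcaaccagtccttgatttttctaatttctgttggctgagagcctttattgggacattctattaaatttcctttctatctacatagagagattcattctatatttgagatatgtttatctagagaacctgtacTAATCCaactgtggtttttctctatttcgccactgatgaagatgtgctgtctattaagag
Crocc2 member, chr1:93197889-93198188: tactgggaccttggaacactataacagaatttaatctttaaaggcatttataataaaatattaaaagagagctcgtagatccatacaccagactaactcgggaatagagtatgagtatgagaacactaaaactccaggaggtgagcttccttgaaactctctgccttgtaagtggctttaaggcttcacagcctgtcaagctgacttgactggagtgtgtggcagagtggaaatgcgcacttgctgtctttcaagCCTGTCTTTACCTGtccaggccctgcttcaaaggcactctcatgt
Slc16a1 member, chr3:104670296-104670595: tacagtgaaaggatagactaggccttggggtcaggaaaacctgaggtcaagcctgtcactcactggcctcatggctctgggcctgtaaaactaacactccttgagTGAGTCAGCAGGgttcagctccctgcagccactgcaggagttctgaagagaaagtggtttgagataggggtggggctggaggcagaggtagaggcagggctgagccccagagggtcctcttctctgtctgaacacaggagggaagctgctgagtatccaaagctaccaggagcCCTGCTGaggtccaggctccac
Lmo7 member, chr14:101798279-101798578: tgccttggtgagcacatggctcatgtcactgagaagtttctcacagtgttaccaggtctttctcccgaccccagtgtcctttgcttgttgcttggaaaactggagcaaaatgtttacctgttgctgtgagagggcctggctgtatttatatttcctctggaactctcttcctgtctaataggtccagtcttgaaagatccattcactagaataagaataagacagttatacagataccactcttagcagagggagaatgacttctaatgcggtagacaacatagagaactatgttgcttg
Lefty1 member, chr1:180924941-180925240: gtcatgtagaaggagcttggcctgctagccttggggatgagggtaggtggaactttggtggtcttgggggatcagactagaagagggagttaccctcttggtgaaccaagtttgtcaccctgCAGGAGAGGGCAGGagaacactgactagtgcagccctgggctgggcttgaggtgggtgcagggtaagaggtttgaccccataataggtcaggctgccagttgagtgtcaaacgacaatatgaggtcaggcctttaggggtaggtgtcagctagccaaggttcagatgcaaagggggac
The windows near 2410141K09Rik and Slc16a1 hold the ZIC letters CAGCAGG or their reverse. The Slc16a1 window also holds the AP-1 letters TGANTCA, overlapping 1 of its ZIC matches, and those near Zfp93 and Lmo7 hold none of the 9 motifs.

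The members' H3K4me1, which chose them, had a median pooled log2 level of 5.39 in formative DKO and 7.02 in formative WT cells, and of 5.43 in naive DKO and 6.97 in naive WT cells. The median DKO minus WT difference was -1.50 in formative cells, with an interquartile range of -1.85 to -1.23. In naive cells it was -1.43, with a range of -1.76 to -1.21. At the edge of the choice, the last members inside lie near Cntn5, 9830107B12Rik and Emb, and the weaker of their losses was within 0.00023 log2 units of the limit. The first regions outside, near Myo5a, Cldn14 and Por, were within 0.000184 log2 units of it, so the boundary separates near-equal values.

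Of the 5660 members, 5351 had H3K27ac above 0 in all 4 groups and enter the differences. The other 309 were listed at 0 in at least 1 group: 139 in formative DKO, 20 in formative WT, 106 in naive DKO and 81 in naive WT. A member that passed only through the groups where it is high had to differ, so the counts that follow speak of the 5351 alone. Without that filter the median differences of all 5660 were -1.17 in formative and -1.25 in naive cells.

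H3K27ac at the members was lower in DKO cells in both states. Its median pooled log2 level was 6.57 in formative DKO and 7.88 in formative WT cells, and 6.60 in naive DKO and 7.91 in naive WT cells. In formative cells the median difference was -1.10, with an interquartile range of -2.02 to -0.29. There 2865 members, or 53.5%, were lower in DKO, where 39.3% of all 105643 regions above 0 were lower. Only 263 members, or 4.91%, were higher, against 11.2% of all regions. In naive cells the median difference was -1.22, with an interquartile range of -2.17 to -0.25. There 3025 members, or 56.5%, were lower and 386, or 7.21%, were higher, where 26.3% and 19.2% of all regions were.

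The eligible regions that are not members give the closest background, and the gap to them was wider in naive cells. In formative cells the 61669 such regions above 0 had a median difference of -0.70, with 40.6% lower and 8.09% higher in DKO. In naive cells theirs was -0.11, with 25.1% lower and 19.1% higher. The members' median minus that of the other eligible regions was -0.40 log2 units in formative and -1.12 in naive cells. The sources used here do not say how groups were scaled to each other. Regions as a whole were lower in formative DKO cells, with a median of -0.63. Setting the 4 group medians equal brought the members' formative median to -0.33 and the other eligible regions' to 0.07. With that scaling 1670 members were lower in formative DKO and 739 higher, in place of 2865 and 263. Those are 31.2% and 13.8% of the members, against 21.4% each way among the other eligible regions. The gap of -0.40 is the same under every scaling that shifts whole groups, by construction.

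**Figure D1:**
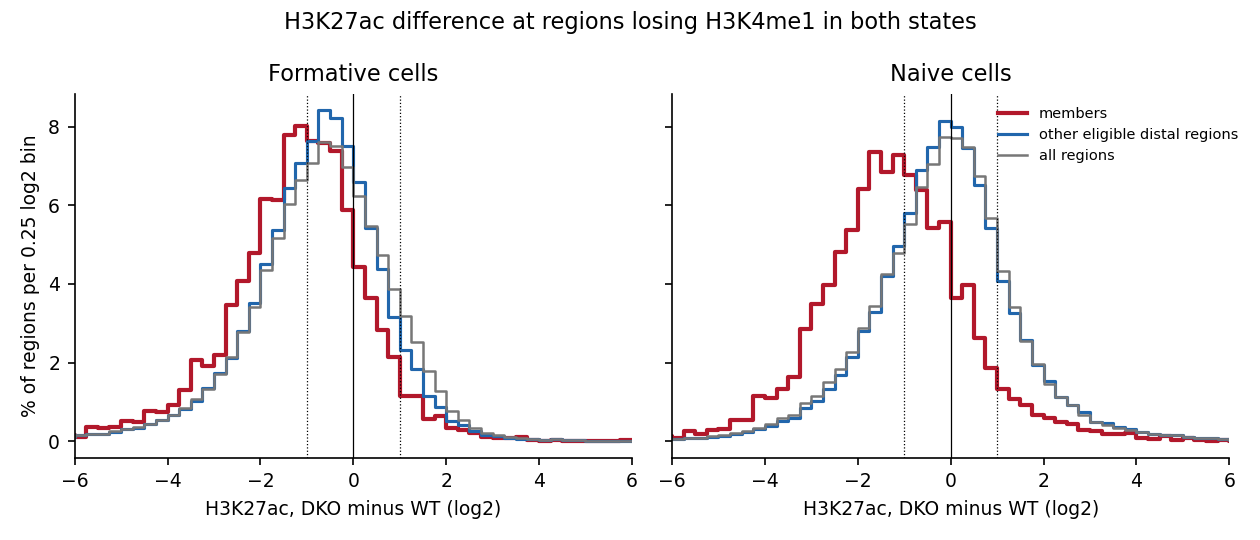
Distribution of the H3K27ac difference, DKO minus WT on the log2 scale, in formative cells (left) and naive cells (right), as the percentage of regions in each bin of 0.25. Lines show the 5351 members, the 61669 other eligible distal regions and all 105643 regions above 0 in all groups, with dotted lines at -1 and 1. Axes stop at -6 and 6. The members' curve sits to the left of both others, further in naive cells, with medians of -1.10 and -1.22.

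In the plot of distributions the members' highest bins lie left of 0 in both states, while those of the other eligible regions lie near 0 in naive cells.

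Losing H3K4me1 in both states did not mean being lower in H3K27ac in both. Of the 5351 members, 1593 or 29.8% were lower in DKO in both states, where 14.1% of all regions and 13.2% of the other eligible regions were. Another 1272, or 23.8%, were lower in formative cells alone, where 25.2% of all regions and 27.4% of the other eligible regions were. In naive cells alone 1432, or 26.8%, were lower, where 12.3% of all regions and 11.9% of the other eligible regions were. The remaining 1054, or 19.7%, were lower in neither. Of these, 828 were neither lower nor higher in either state, and 219 members, or 4.09%, lay within 0.5 log2 units of WT in both, where 9.02% of all regions did. Only 8 members, or 0.150%, were higher in DKO in both states, where 2.78% of all regions were. Among the members lower in 1 state alone, 415 were higher in the other. These are 7.76% of the 5351, where 8.88% of all regions were so placed. Of the 415, 170 were higher in formative and lower in naive cells, and 245 the reverse. Across the 5351 members the difference in formative cells and that in naive cells had a Pearson r of -0.0025 and a Spearman rho of 0.0063, given as a description. The 2 differences come from separate libraries, and regions are not replicates.

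**Figure D2:**
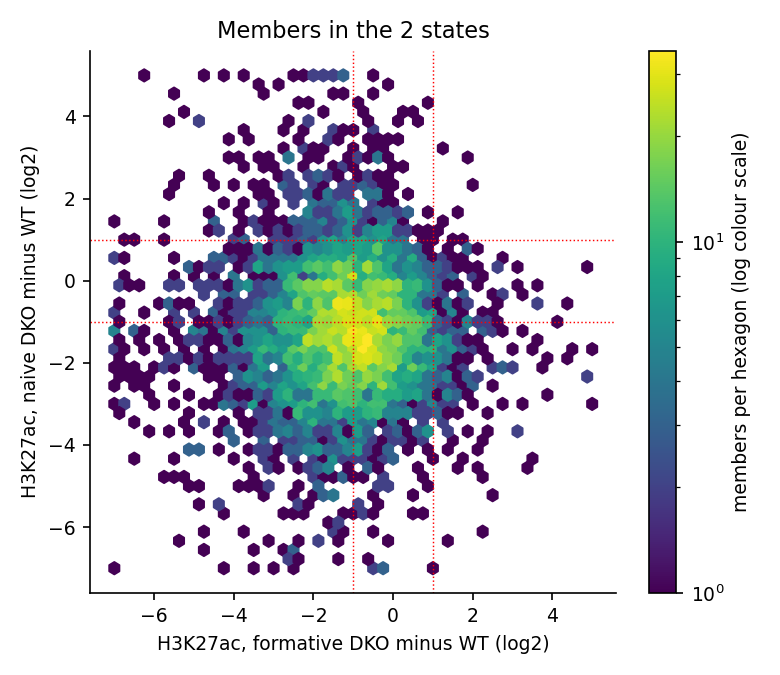
The 5351 members by their H3K27ac difference in formative cells (x axis) and in naive cells (y axis), DKO minus WT on the log2 scale. Colour gives the number of members per hexagon on a log scale, and the 50 members beyond -7 or 5 are drawn at the edge. The dotted lines at -1 and 1 bound the counts in the text: the lower left corner holds 1593 members and the upper right corner 8.

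In the hexagon plot the cloud is round, with no diagonal, so a member's difference in one state did not follow its difference in the other.

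The depth of the H3K4me1 loss and the size of the H3K27ac difference moved together across all eligible regions. In formative cells the median H3K27ac difference was -1.70 at the 133 regions with an H3K4me1 difference of -3 or less in that state. It was -1.64 between -3 and -2, -1.30 between -2 and -1.5 and -1.04 between -1.5 and -1. It was -0.83, -0.71 and -0.54 in the bins between -1 and -0.5, between -0.5 and 0 and above 0. In naive cells the medians in the same bins were -1.91, over 97 regions, then -1.56, -1.14, -0.66, -0.22, 0.03 and 0.15. Each step to the next bin was thus larger in naive cells, except the last. Within the members, Spearman's rho between the H3K4me1 and H3K27ac differences was 0.161 in formative and 0.194 in naive cells, as a description over 5351 regions that share libraries.

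**Figure D3:**
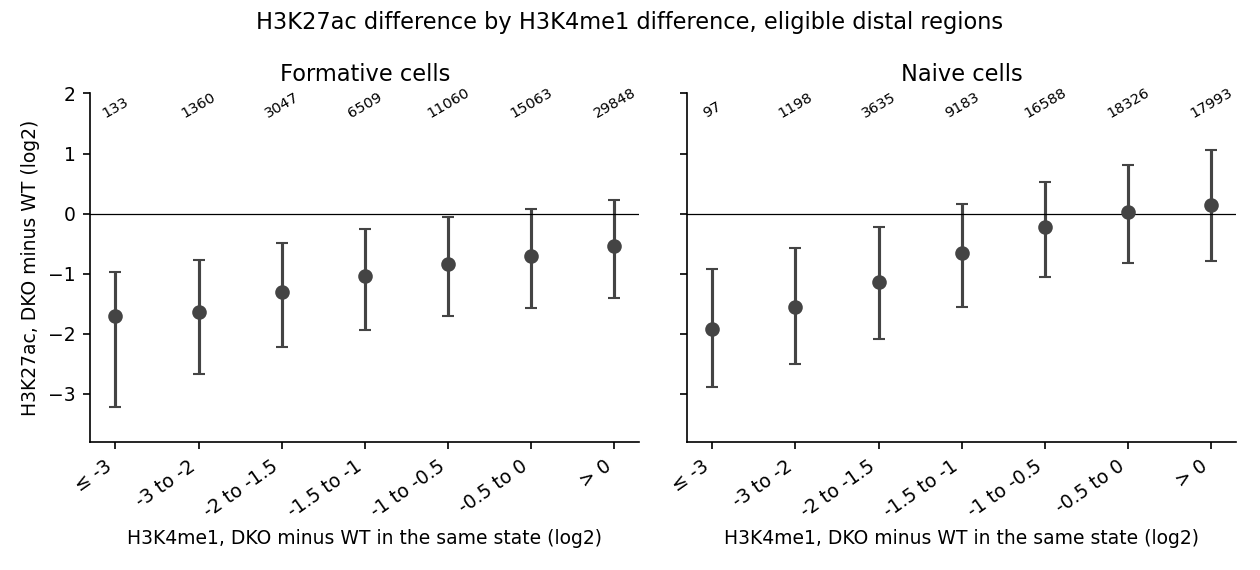
Median H3K27ac difference (points) and interquartile range (bars), DKO minus WT on the log2 scale, for eligible distal regions above 0 binned by their H3K4me1 difference in the same state, in formative (left) and naive (right) cells. Numbers above the points are regions per bin. From left to right the medians run upward, between -1.70 and -0.54 in formative cells and between -1.91 and 0.15 in naive cells.

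The plot by H3K4me1 bin shows wide bars that overlap between neighbouring bins, so the H3K4me1 difference of 1 region says little about its H3K27ac difference. Regions that lost H3K4me1 in formative cells alone were lower in H3K27ac chiefly there. Those that lost it in naive cells alone had near-equal medians in both states. Compared with regions that kept H3K4me1, however, they were lower chiefly in naive cells. The 5698 regions that lost it in formative cells alone had a median H3K27ac difference of -1.28 in formative and -0.34 in naive cells. The 8762 that lost it in naive cells alone stood at -0.70 in formative and -0.66 in naive cells. The 15371 that kept H3K4me1, within 0.5 log2 units in both states, stood at -0.63 and 0.07. The members, at -1.10 and -1.22, were the set of these 4 with the lowest naive median. In formative cells the regions that lost H3K4me1 there alone had a lower median than the members.

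The formative difference varied with how much H3K27ac a region carries, while the naive one did so less. Regions were ranked by abundance, the mean of the 4 levels with the division by width undone. From the lowest to the highest abundance quartile, the members' formative medians were -2.18, -1.07, -0.84 and -0.55. Those of the other eligible regions were -1.95, -0.88, -0.39 and 0.04. The members' naive medians were -1.43, -1.14, -1.14 and -1.31, while those of the other eligible regions were -0.31, -0.23, -0.08 and 0.04. Because abundance includes the DKO levels, this ranking shares values with the differences. Among members above the median abundance of all regions, 868 of 2309 were lower in formative and 1337 in naive DKO cells, or 37.6% and 57.9%, and the other eligible regions above it were at 18.9% and 17.5%.

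The members were more often intergenic than the other eligible regions, at 45.1% against 26.0%. Regions that lost H3K4me1 in formative cells alone were near them at 40.6%, and those that lost it in naive cells alone were at 23.5%. Intergenic members had medians of -1.14 in formative and -1.47 in naive cells, and intronic members -1.07 in both. Distance to the TSS, with a median of 26784 bases among members and 23578.5 among the others, made little difference. The formative medians in the distance classes 5000 to 20000, 20000 to 50000 and 50000 to 100000 bases were -1.09, -1.09 and -1.13. Chromosome 8 held 600 members, or 10.6%, against 7.63% of the other eligible regions. It held 11.8% of the regions that lost H3K4me1 in naive cells alone and 7.77% of those that lost it in formative cells alone. Members there stood at -1.37 in both states. Those on chromosome 6 were at -1.42 in formative and -1.55 in naive cells. The other eligible regions were also lower on these chromosomes, at -1.18 and -0.42 on chromosome 8 and at -1.05 and -0.47 on chromosome 6. Without chromosome 8 the members' medians were -1.07 in formative and -1.21 in naive cells, and whether the cells differ in copies of a chromosome was not tested.

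In WT cells the members did not move one way between the states. By the authors' deposited table, which tests formative against naive WT with DiffBind over 2 libraries each, 1473 members fell and 880 rose at an adjusted p under 0.05. These are 26.0% and 15.5% of the 5660. Of all 112137 regions, 15.8% fell and 20.8% rose per the authors' deposited table. Among the other eligible regions 13.1% fell and 22.6% rose in the authors' deposited table. The regions that lost H3K4me1 in formative cells alone leaned the other way, with 10.0% falling and 33.0% rising in the authors' deposited table. Those that lost it in naive cells alone leaned as the members did, with 21.9% falling and 12.0% rising in the authors' deposited table. The median fold was -2.32 for the falling and 2.61 for the rising members in the authors' deposited table.

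The DKO minus WT difference was larger in the state in which WT carried more H3K27ac. Of the falling members, 1422 were above 0 in all groups. In formative cells their median difference was -0.23, with 26.1% lower in DKO, and in naive cells it was -2.07, with 85.8% lower. Of the rising members, 758 were above 0 in all groups. Their median was -1.84 in formative cells, with 80.6% lower, and 0.13 in naive cells, with 20.1% lower. The members that did neither stood at -1.26 in formative and -1.07 in naive cells. These classes were made on the WT libraries that also enter each difference, so part of that split follows from the classes. The other eligible regions give the same split measured the same way: those that fell stood at 0.53 in formative and -0.92 in naive cells, and those that rose at -1.28 in formative and 0.96 in naive cells. Against them the members were lower in all 4 values, by the largest amount in naive cells among those that fell.

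Between the states DKO cells showed a smaller difference than WT cells at these members, as they did at the other eligible regions. For DKO cells the median formative minus naive difference in pooled levels was -0.54 among the members that fell, against -2.34 for WT cells. Among those that rose it was 0.42 for DKO cells, against 2.39 for WT cells. Among the other eligible regions that fell it was -0.66 for DKO and -2.06 for WT cells, and among those that rose 0.30 and 2.56. The WT values chose these classes, so the larger WT difference is partly built in and is a description. Over all 5351 members the median difference between the states was -0.04 in DKO cells, and 1167 were lower and 1048 higher in formative DKO than in naive DKO cells. Those are 21.8% and 19.6%, where 17.9% and 16.6% of all regions were.

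The state labels were checked on marker genes over all regions. At 7 naive markers such as Zfp42 and Esrrb, 63 of 114 regions fell and 8 rose in WT, and at 6 formative markers such as Fgf5 and Otx2, 27 of 47 rose and 2 fell, as given by the authors' deposited table. The medians of the formative minus naive difference over genes were -1.24 in DKO and -2.07 in WT cells for the naive markers, and 0.86 in DKO and 2.09 in WT cells for the formative ones. Markers of other cell types also differed between the states. Their medians were 0.16 in DKO and 1.35 in WT cells for primitive endoderm, 0.53 and 2.86 for trophoblast, -0.14 and 2.14 for fibroblast and -0.67 and -0.53 for neural markers. Their part in the members' values was not tested. Members were absent from the 12 regions near primitive endoderm markers (such as Gata4 and Gata6) and the 15 near trophoblast markers (such as Cdx2). They were also absent from the 8 near neural markers (Sox1 and Pax6). Of 10 regions near fibroblast markers 2 were members, near Col3a1. The naive markers held 6 of 114 and the formative ones 1 of 47, where 5660 of all 112137 regions are members. With so few regions, an absence of members says little. As log2 DKO against WT, Kmt2c RNA stood at -0.91 in formative and -1.15 in naive cells and Kmt2d RNA at -0.84 and -0.72, per the authors' deposited table. These folds do not check the knockout itself, since the deleted part of each gene is unknown here, and no region near either gene is a member.

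Members with low H3K27ac in DKO in both states are set out first. Among the members above the members' median abundance, the 8 were taken for which the smaller of both reductions was largest, so their values follow from the choice and test nothing. Members below that abundance reached larger reductions, such as 1 of 2 near Svip, picked after its values were seen, at -7.25 in formative and -7.28 in naive cells. The member near Zfp93, a zinc finger gene, is labelled intergenic in the table and overlaps an exon of Zfp93 in the GENCODE gene annotation. It spans chr7:24277366-24281225 and had a pooled log2 level of 3.17 in formative DKO, 7.57 in formative WT, 4.32 in naive DKO and 8.36 in naive WT cells. Both DKO values lay below both WT values, with differences of -4.40 in formative and -4.04 in naive cells. The member near 2410141K09Rik, at chr13:66456773-66458343, had 4.07 in formative DKO, 7.51 in formative WT, 4.62 in naive DKO and 9.46 in naive WT cells. That near Crocc2, related to the ciliary rootlet protein, is labelled intronic and overlaps an exon of Crocc2 in the same annotation. At chr1:93195699-93200380, it had 3.70 in formative DKO, 6.96 in formative WT, 4.56 in naive DKO and 8.26 in naive WT cells. The other 5 lie near Slco1b2, a hepatic anion transporter, Cfap100, a ciliary protein, Ceacam11, an adhesion molecule of the CEA family, Fbxw19, an F-box protein, and Ppp4r4, a phosphatase subunit. Over the 8, DKO levels ran from 3.05 to 5.46 in formative and from 3.49 to 5.32 in naive cells, while WT levels ran from 6.16 to 9.44 and from 7.13 to 9.75. No DKO level of the 8 reached any of their WT levels.

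RNA of the nearest gene was given for 4 of these 8. In the authors' deposited table it was lower at Crocc2, at -1.94 in formative and -2.15 in naive cells, and at Ppp4r4, at -3.31 and -1.54. At 2410141K09Rik it was at -0.40 in formative and -2.27 in naive cells, and at Zfp93 at 0.71 and -0.73, in the authors' deposited table. These RNA folds carry no error or test in the table.

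Some of these regions resemble one another in sequence. Repeat-masked bases made up 13.7% to 85.8% of the 8 lowest members, with a median of 29.4%, and 4.14% to 25.5% of the 8 members with the highest values, with a median of 8.72%. In a BLAST comparison, chosen after the sequences had been seen, the Ceacam11 member aligned over at least 300 bases at 80% identity or more to 99 other members and 184 other eligible regions. These are 1.75% of the members and 0.281% of the other eligible regions. The Zfp93 member matched 67 members and 85 others, or 1.18% and 0.130%, and the Crocc2 member 40 and 95, or 0.707% and 0.145%. The Fbxw19 member matched 33 and 40, or 0.583% and 0.0611%, and the Slco1b2 member 8 and 41, or 0.141% and 0.0626%. Those near 2410141K09Rik, Cfap100 and Ppp4r4 matched no other member. The best stretch between the Ceacam11 and Crocc2 members was 83.7% identical over 319 bases, and that between Ceacam11 and Zfp93 members 81.3% over 321. Among the members that matched Ceacam11 and were above 0, 58 of 96 were lower in DKO in both states, with medians of -1.73 in formative and -1.91 in naive cells. Among the other eligible regions that matched it, 37 of 178 were lower in both, with medians of -0.82 and -1.20. None of the 8 members with the highest values matched any other eligible region. Their widths ran from 603 to 3378 bases and those of the 8 lowest from 1572 to 4807. Wider regions offer more sequence to match, and the part of width was not tested. Reads from related copies can be shared between them, and the sources used here do not say how such reads were placed.

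The 8 members that were higher in DKO in both states form the whole of that class. The member near Slc16a1, the lactate transporter MCT1, at chr3:104669977-104670915, had 9.96 in formative DKO, 8.01 in formative WT, 9.95 in naive DKO and 7.55 in naive WT cells. That near Lmo7, a LIM domain protein of cell junctions, had 10.34 in formative DKO, 8.53 in formative WT, 8.07 in naive DKO and 5.00 in naive WT cells, at chr14:101797980-101798878. The others lie near Mir6951, 6430531B16Rik, Ergic1, Prtg, Aff1 and Snx9. Over the 8 the differences ran from 1.00 to 1.95 in formative and from 1.02 to 3.17 in naive cells, smaller than the reductions of the 8 lowest members. With group medians at promoters set equal, 2 of these 8 were still higher in both states, while all 8 lowest members were still lower in both. Slc16a1 RNA stood at 0.31 in formative and 1.19 in naive cells and Lmo7 RNA at -0.88 and -0.73, per the authors' deposited table.

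**Figure D4:**
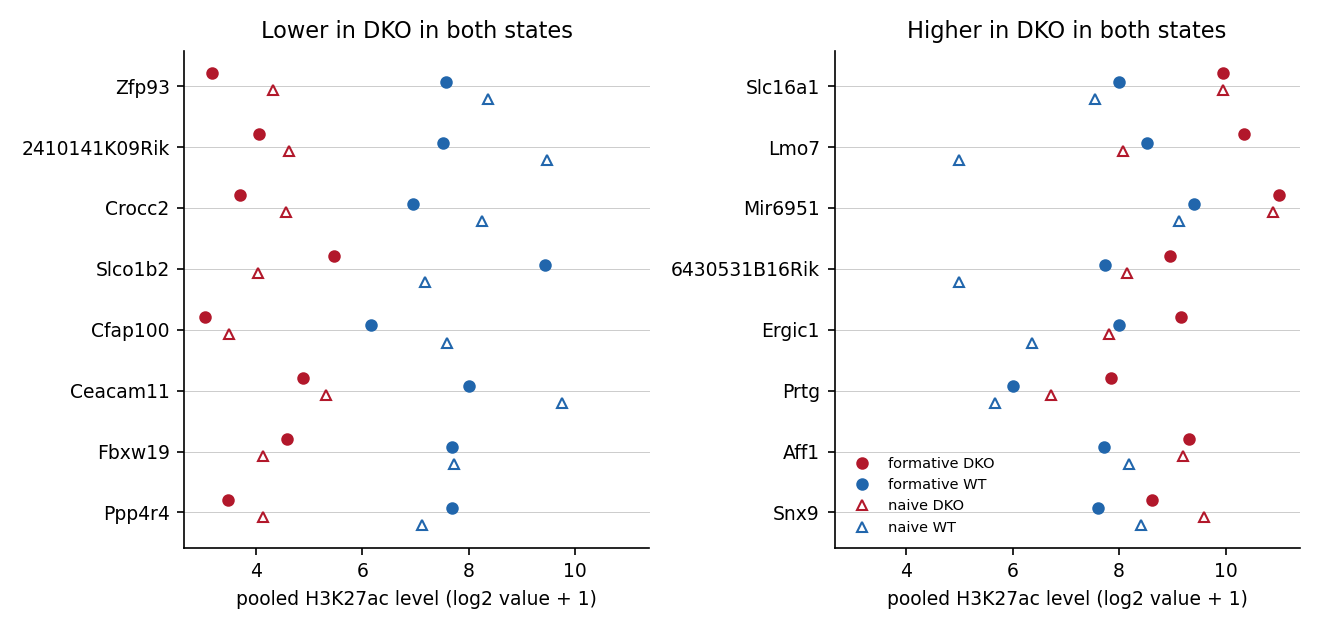
Pooled H3K27ac level, log2(value + 1), of the 8 members above the members' median abundance with the lowest (left) and the 8 with the highest (right) H3K27ac in DKO relative to WT in both states, each named by its nearest gene. Filled circles are formative and open triangles naive cells, red is DKO and blue is WT, with 1 pooled value per group. On the left every DKO value is at or below 5.46 and every WT value at or above 6.16.

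In the plot of levels by gene, DKO and WT separate within each state in every row, which is what the choice of these regions asked for. Across the states they separate in every row on the left, while on the right the naive DKO level lies below the formative WT level near Lmo7 and Ergic1. The spread between libraries behind each point is not in the columns used here.

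Some genes had several members. The nearest genes numbered 3406, of which 2270 had 1 member, 473 had 3 or more and 15 had 10 or more. Joined where gaps were at most 10000 bases, the members formed 4333 groups, and 2204 members, or 38.9%, had a neighbour. The largest group held 11 members, at chr3:83965047-84004300 near Tmem131l, with medians of -2.12 in formative and -0.88 in naive cells. The next held 9, at chr8:39040532-39065664 near Tusc3, with medians of -0.99 and -1.88, so the larger reduction was in formative cells in the first and in naive cells in the second. A group of 7 at chr14:24199967-24235773 near Dlg5 stood near WT, at 0.18 and -0.36. Members that lie side by side share their surroundings and are not independent. Neighbours among the other eligible regions were not counted, so whether members group more than eligible regions do was not tested.

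Arhgef3, a guanine nucleotide exchange factor, had 18 members out of 31 eligible regions, at chr14:27092197-27387789. Their levels had medians of 6.01 in formative DKO, 7.82 in formative WT, 5.85 in naive DKO and 7.18 in naive WT cells. The median differences were -1.28 in formative and -1.73 in naive cells, and 12 of 18 were lower in formative and 11 in naive DKO cells. In the authors' deposited table Arhgef3 RNA was at -2.58 in formative and -3.58 in naive cells.

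Dpp6, an auxiliary subunit of voltage-gated potassium channels, also had 18 members, of which 14 were above 0 in all groups. Their levels had medians of 5.79 in formative DKO, 8.13 in formative WT, 5.61 in naive DKO and 8.01 in naive WT cells. All 14 were lower in formative DKO, 13 also in naive DKO, and their highest differences were -1.08 in formative and -0.55 in naive cells. Dpp6 RNA was at -0.90 in formative and -2.02 in naive cells in the authors' deposited table. These loci had members lower in both states together with lower RNA, whereas the next genes by count did not all have it. Gse1, with 13 members at medians of -1.87 and -1.40, and Tmem131l, with 13 at -1.77 and -0.72, had RNA folds of -0.22 and -0.68 and of -0.32 and -0.56 in the authors' deposited table, formative value first. The gene 2410141K09Rik had 12 members, a number that Chd9 and Sipa1l2 share. Its 10 members above 0 had medians of -2.46 in formative and -3.60 in naive cells, and 10 of the 12 fell in WT in the authors' deposited table.

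Members near pluripotency genes are given list by list. The lists that follow were chosen with earlier results of these data known. Near 20 naive pluripotency genes, 30 of 179 eligible regions were members, or 16.8%, where 7.96% of all eligible regions are. Of the 29 above 0, 11 were lower and 3 higher in formative DKO cells, with a median of -0.51, which was 0.26 with all group medians set equal. In naive cells 25 were lower and 1 higher, with a median of -1.78. Of the 30 members 21 fell in WT and 2 rose, by the authors' deposited table.

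Klf2, a Krüppel-like factor of the naive network, had 7 members out of 15 eligible regions. Their levels had medians of 6.08 in formative DKO, 5.68 in formative WT, 6.45 in naive DKO and 8.50 in naive WT cells. Taken member by member, the median DKO minus WT difference was -0.42 in formative and -2.08 in naive cells. The formative one thus has the opposite sign to the gap between the formative level medians. None was lower in formative DKO cells, and all 7 were lower in naive DKO cells, with differences of -3.35 to -1.73. All 7 fell in WT in the authors' deposited table.

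Klf5, its relative, had 7 members out of 20, with medians of 6.32 in formative DKO, 7.36 in formative WT, 6.35 in naive DKO and 8.86 in naive WT cells. Member by member, the median difference was 0.24 in formative and -1.69 in naive cells, so here too the formative sign is opposite to that of the level medians. Among the 7, 2 were lower in formative and 6 in naive DKO cells. The broadest, at chr14:99335155-99344181, had 5.00 in formative DKO, 4.15 in formative WT, 6.23 in naive DKO and 7.45 in naive WT cells, and the authors' deposited table gives it a DiffBind log2 fold of -3.49 (adjusted p = 4.94e-79). Fgf4, the ligand that drives ERK signalling in these cells, had 3 members with medians of -1.33 in formative and -2.44 in naive cells. The 1 member higher in naive DKO cells lies near Socs3, a feedback inhibitor of STAT3 signalling, with 8.72 in formative DKO, 10.14 in formative WT, 8.39 in naive DKO and 3.85 in naive WT cells. The single Tet2 member, near the gene of a 5-methylcytosine dioxygenase, was at 1.93 in formative and 0.78 in naive cells. The 10 naive genes with an RNA fold had medians of 0.18 in formative and -0.59 in naive cells in the authors' deposited table, and only Spry4, a feedback inhibitor of ERK signalling, was at least 2-fold lower in naive cells, at -2.24.

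Near formative pluripotency genes, 15 of 108 eligible regions were members, or 13.9%, and all 15 were above 0. In formative cells 10 were lower and none higher, with a median of -1.64, and in naive cells 9 were lower and 1 higher, with a median of -1.19. Over all members 53.5% were lower in formative and 56.5% in naive cells. With all group medians set equal, 6 of the 15 were lower and 3 higher in formative cells, with a median of -0.88, and the naive median was -0.90. The member near Sox3, encoding a SoxB1 factor, had 3.04 in formative DKO, 9.49 in formative WT, 6.82 in naive DKO and 8.96 in naive WT cells. That near Foxd3, a forkhead factor, had 4.30 in formative DKO, 3.73 in formative WT, 5.04 in naive DKO and 7.93 in naive WT cells, so it was lower in DKO in naive cells alone. Etv5, an ETS factor downstream of ERK, had 4 members with medians of -1.14 and -0.84. Of the 9 genes with an RNA fold, 1, Sox3, was at least 2-fold lower in formative DKO cells and 5 in naive DKO cells, in the authors' deposited table. Of those 5 in naive cells, Utf1 stood at -2.72, Sox3 at -1.91, Foxd3 at -1.51, Etv4 at -1.26 and Etv5 at -1.24 in the authors' deposited table.

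The core pluripotency list, of genes used in both states, had 11 members among 108 eligible regions, or 10.2%. Of these, 4 were lower in formative cells with a median of -0.44, which was 0.32 with all group medians set equal, and 7 were lower in naive cells with a median of -1.64. The member near Pou5f1, which encodes OCT4, had 5.27 in formative DKO, 5.06 in formative WT, 6.19 in naive DKO and 8.13 in naive WT cells. Its DKO minus WT difference was 0.21 in formative and -1.95 in naive cells.

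Primed and mesendoderm genes had 6 members among 44 eligible regions, or 13.6%. Of these, 5 were lower in formative DKO cells, at a median of -2.03, and 3 in naive DKO cells, at a median of -0.79. The member near Nodal, the ligand of the pathway, had 3.38 in formative DKO, 9.11 in formative WT, 9.04 in naive DKO and 9.51 in naive WT cells, so 1 of the 4 values stood apart. That near Lefty1, a secreted inhibitor of Nodal, had 4.51 in formative DKO, 7.77 in formative WT, 5.59 in naive DKO and 7.30 in naive WT cells. The RNA folds in the authors' deposited table were -1.52 in formative and 0.85 in naive cells for Lefty1, -1.77 and 0.45 for Nodal, and -2.04 and 4.11 for Wnt3, which encodes a Wnt ligand.

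Near the LIF/STAT3 and ERK signalling genes, 18 of 111 eligible regions were members, or 16.2%. In formative cells 5 were lower and 4 higher, with a median of 0.28, and setting all group medians equal gave 2 lower and 9 higher there, with a median of 1.05. In naive cells 12 were lower and none higher, with a median of -1.53. Opposite differences stood at the member near Dusp6, an ERK phosphatase, with 7.85 in formative DKO, 5.10 in formative WT, 7.04 in naive DKO and 9.04 in naive WT cells. The 4 members near Lifr, the LIF receptor, had medians of -1.19 in formative and -1.54 in naive cells, and the 3 near Spry2, a feedback inhibitor, of 1.80 and -1.17.

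Other lists held few members, and their shares stand beside 7.96% of all eligible regions. The H3K4 methylation and acetylation machinery had 3 of 112, or 2.68%, which lie near Ep300, encoding p300, and Hdac2, a deacetylase, with medians of -1.23 in formative and -1.62 in naive cells. The housekeeping list had 1 of 30, or 3.33%, near Eef1a1, at -0.75 and 1.55. The wider primitive endoderm list had 4 of 76, or 5.26%, at medians of -0.34 in formative and -0.69 in naive cells. The trophoblast list had 3 of 35, or 8.57%, at medians of -2.26 and 0.92. The neural list had none of 20. The fibroblast list had 2 of 24, or 8.33%, both near Col3a1, at medians of -0.60 in formative and -2.02 in naive cells. Both fell in WT in the authors' deposited table.

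Nearest genes had lower RNA more often near members than near other eligible regions, chiefly in naive cells. The authors' deposited table holds RNA folds for 9781 genes, of which 5.05% were at least 2-fold lower and 5.87% higher in formative DKO than in WT cells. In naive cells 11.2% were lower and 8.54% higher in the authors' deposited table. Of the 1902 with at least 1 member, 130 or 6.83% were lower and 94 or 4.94% higher in formative cells, with a median of 0.00, in the authors' deposited table. In naive cells 351 or 18.5% were lower and 119 or 6.26% higher, with a median of -0.17. The 6097 genes with eligible regions but no member had 8.99% lower and 9.07% higher in naive cells in the authors' deposited table.

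Genes with 3 or more members went further. Of 279 such genes 7.17% were lower and 3.94% higher in formative cells, and 27.6% lower and 3.94% higher in naive cells, with a median of -0.57, in the authors' deposited table. Of the 45 with 3 or more members that were also lower in H3K27ac in both states, 13.3% were lower and 2.22% higher in formative cells, in the authors' deposited table. In naive cells 22 or 48.9% of the 45 were lower and none higher, with a median of -0.84. Genes with many members also have more eligible regions and are assigned by nearest TSS alone, and the part of either in these shares was not tested.

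**Figure D5:**
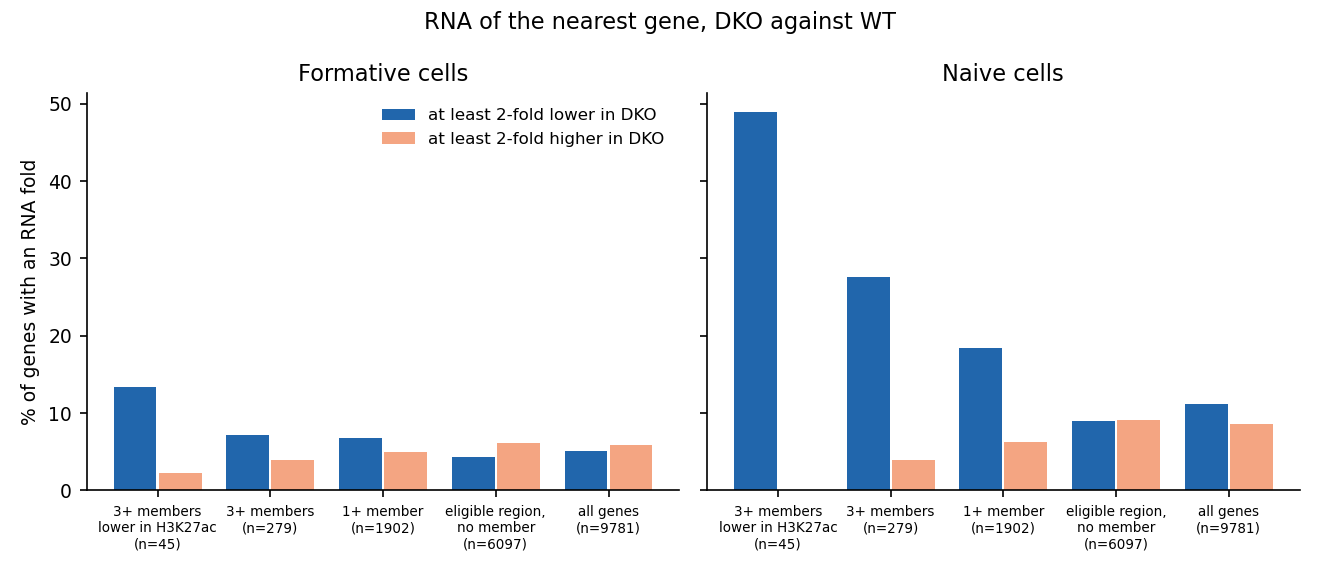
Share of genes whose RNA was at least 2-fold lower (blue) or higher (orange) in DKO than in WT, in formative (left) and naive (right) cells, from the authors' deposited table. Gene sets run from those with 3 or more members lower in H3K27ac in both states (45 genes) to all 9781 genes with a fold. The share lower in naive cells is 48.9% in the leftmost set and 11.2% in the rightmost, while in formative cells the shares lie between 4.38% and 13.3%.

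The bar plot of RNA shares shows an asymmetry between the states. The share of lower genes among those with a member was 6.83% in formative and 18.5% in naive cells. All genes with a fold were also lower more often in naive than in formative cells, at 11.2% against 5.05%. The members' H3K27ac medians were -1.10 in formative and -1.22 in naive cells as deposited. Their gap to the other eligible regions was -0.40 in formative and -1.12 in naive cells, so it too was wider in naive cells.

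Members had fewer CpG dinucleotides and more repeat-masked bases than the other eligible regions, and a slightly lower GC content. In the central 300 bases, GC content had a median of 46.7% in 5653 members and 48.3% in 65391 others, the mean number of CpG dinucleotides was 2.53 against 3.99, and repeat-masked bases were 20.7% against 15.7%. The octamer ATGCAAAT of POU factors, or its reverse complement, was in 2.25% of members and 1.34% of others. TCAAGGTCA, bound by ESRRB, was in 1.42% and 0.973%, CCATTGTT of SOX factors in 1.43% and 0.986%, and GGAATG of TEAD factors in 19.5% and 15.6%. The KLF letters GGGNGTGG were in 12.3% of members and 10.6% of others, GGATTA of OTX in 13.0% and 12.0%, TGANTCA of AP-1 in 10.9% and 9.22%, and CAGCAGG of ZIC in 12.7% and 10.9%. The paired CCNG motif of TFCP2L1 was the only one of the 9 in fewer members, at 15.4% against 18.3%. Between members that moved in WT, the ESRRB letters were in 2.31% of those that fell and 0.343% of those that rose. Both strands were searched, AP-1 and ZIC letters can overlap, and a match is only a match of letters.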

How the data were processed

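H3K27ac CUT&Tag was made from 8 libraries, 2 in each of 4 groups taken from the labels. The submitters' processing notes name Bowtie2, deepTools, DiffBind, SEACR and Trim Galore and the build mm10, but no versions. What the authors deposited is 1 table of 112137 regions and 47 columns. Its H3K27ac and H3K4me1 levels are pooled by the authors on the log2(value + 1) scale, and the level falls with region width squared. DiffBind's log2 fold and adjusted p-value compare formative with naive WT, as deposited, and the deposited RNA folds are log2. No library totals were used, so depth is unknown. The 8 RNA level columns were not used.

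Differences were taken between pooled values at regions above 0 in all 4 H3K27ac columns, in Python 3.11.15 with pandas 2.3.3 and numpy 2.4.6, and the counting was tested on simulated data. No p-value was computed. Regions were compared in sequence with blastn 2.17.0. The members and gene lists were chosen with earlier results of these data known. Regions were named by a rule: among members of a known gene and above the members' median abundance, the 8 lowest and 8 highest in both states, up to 3 genes per list, the 5 genes with the most members and the regions at the edge of the choice. Other genes of the lists were named after their values were seen. The RefSeq genome used for sequences is GRCm38, and no region ran past a chromosome end; 1 sequence is not reported here. The alternatives tried were 4 scalings, filters on level, width and distance, other losses of H3K4me1 and other thresholds.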

Additional observations from a re-analysis of the deposited data

Results flagged for a closer look

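At 9 of the 91 members near listed genes that were above 0 in all groups, the DKO minus WT difference in H3K27ac was at least 1 log2 unit in both states, with opposite signs. That is 9.89%, where 7.76% of all 5351 members were so placed. These are differences of pooled values, so whether the states differ was not tested, and other members near the same genes often differed.

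Lower in formative and higher in naive DKO cells were 3 of them. At Socs3 the values were -1.42 in formative and 4.53 in naive cells. At Grhl2, a grainyhead-like factor, 1 of 2 members was at -1.86 and 2.33, while the other was lower in both states, at -4.14 and -2.97. The member near Tfap2c, an AP-2 factor, was at -4.59 and 1.62. Its formative DKO level of 5.16 stood apart from 9.75 in formative WT, 9.83 in naive DKO and 8.21 in naive WT cells.

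The other 6 were higher in formative and lower in naive DKO cells. The member near Dusp6 was at 2.75 in formative and -1.99 in naive cells, and the member near Il6st, the gene of the receptor subunit gp130, at 1.14 and -1.40. At Klf2, 1 of 7 members was at 1.85 and -1.78. At Klf5, 1 of 7 was at 1.27 and -1.48, and at Spry2, 1 of 3 was at 2.84 and -1.17. At Mycn, a MYC family gene, 1 of 3 members was at 1.33 and -1.33, while the others were lower in formative DKO cells, at -3.93 and -2.23, with -0.04 and -2.44 in naive cells.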

How the results depend on the processing

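No paired analysis was possible because the table holds 1 pooled value per group and the DiffBind test was deposited without its libraries, and for the same reason no replicate could be left out. All settings kept the members' medians below 0 in both DKO minus WT comparisons, and the cause of each change in count was not tested beyond what the setting itself does. The counts are members lower, then members higher. In formative cells they were 2865 and 263 as deposited, 1670 and 739 with all medians equal, 1701 and 887 after quantile normalization, and 126 higher with promoter medians equal. In naive cells promoter scaling gave 242 higher, against 386. Above the median abundance, over 2309 members, they were 868 and 136 in formative and 1337 and 75 in naive cells. Between the states in DKO they were 411 and 252. At widths of at least 1 kb, over 3224 members, they were 1571 and 168, 1963 and 142, and 680 and 498. With an H3K4me1 loss of at least 2, over 237 regions, they were 159 and 12, 167 and 15, and 61 and 50. With at least 0.5, over 14885 regions, they were 7209 and 796, 6702 and 1538, and 3081 and 2830. The shares lower in formative cells were 67.1% at a loss of 2, 53.5% at 1 and 48.4% at 0.5. In naive cells they were 70.5%, 56.5% and 45.0%. At a call of 2 log2 units, over all 5351 members, the counts were 1362 and 76, 1532 and 173, and 395 and 372. Beyond 20000 bases, over 3305 members, they were 1777 and 161, 1854 and 233, and 720 and 655. Leaving out chromosome 8, a setting chosen after seeing the data, moved no count by over 1.5 times. In WT the authors' deposited table gave 880 rising members of 5660 at a DiffBind adjusted p under 0.05 and 583 under 0.01. Among the 3276 members at 1 kb or wider it gave 522. The pooled values gave 1589 of 5351. At a loss of at least 2, 71 of 269 fell and 34 rose in the authors' deposited table. Genes with lower RNA in the authors' deposited table were 130 in formative and 351 in naive cells, of 1902. They were 20 and 77 of 279 with 3 or more members, and 65 and 177 of 681 with a member lower in H3K27ac in both states. With a member within 20000 bases they were 74 and 223 of 1013. The formative median moved with the scaling more than the naive one, between -1.73 and -0.33 against -1.80 and -0.93.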

Other observations

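Members in narrow regions and in broad ones differed by state. In formative cells the median DKO minus WT difference was -1.85 at the 166 members under 500 bases wide, -1.31 at 500 to 1000 bases, -1.07 at 1000 to 2000 bases and -0.76 at the 1081 members over 2000 bases. In naive cells the order ran the other way, with medians of -0.71, -1.01, -1.26 and -1.56. The other eligible regions showed the same order in formative cells, at -1.57, -1.03, -0.60 and -0.25 in the same width classes. In naive cells their medians hardly changed with width, at -0.16, -0.11, -0.10 and -0.10. Chromosome 19 showed the weakest formative median of the autosomes and chromosome X, at -0.53 over 100 members, with -1.47 in naive cells. It was also the weakest among the other eligible regions, at -0.46 in formative and 0.01 in naive cells. Members on chromosome X stood at -1.40 and -1.51, and the other eligible regions there at -0.77 and -0.87. Among other genes with many members, 9 near Mir6352 stood apart. The 8 of these above 0 were all lower in naive DKO cells, none was lower in formative DKO cells, and their medians were 0.95 in formative and -2.88 in naive cells. Of the 9 members 8 fell in WT in the authors' deposited table. These values were picked after they had been seen.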
